A study of Mus musculus with 11 samples.

Results

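The regions described here are 606 gene regions of the mouse genome that stayed on the interior side of the lamin B1 contact score in every library and whose score fell in differentiating oligodendrocytes (OL) relative to oligodendrocyte precursor cells (OPC). A region was taken when it lay on chr1 to chr19, when all 6 library scores were below 0, when the mean of the 3 OL scores minus the mean of the 3 OPC scores was under −0.4, and when the highest OL score was below the lowest OPC score. This gave 606 of 21534 regions in the table, or 4.13% of the 14686 regions of chr1 to chr19 that were below 0 in all 6 libraries, called interior regions below. The same rule turned round, with every OPC score below every OL score and a difference over 0.4, took 1762 regions (12% of the interior regions), called rising regions.

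Lamin B1 is a filament protein of the nuclear lamina, the meshwork under the inner nuclear membrane. Lamina-associated domains are long stretches of mostly gene-poor, repressed chromatin that touch this meshwork, while chromatin of the nuclear interior holds most active genes. In DamID the bacterial enzyme Dam, an adenine methyltransferase that marks the sequence GATC, is fused to a protein of interest, and DNA near that protein gains adenine methylation that can be amplified and sequenced. A fall in the score of a region that is already on the interior side is read as less lamin B1 methylation relative to free Dam, and does not mean that the region crossed out of a lamina-associated domain.

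The cells were wild-type (WT in the labels) primary OPC from the cortex of C57BL/6 mice at postnatal day 7, which carried a lentiviral vector for Dam-LMNB1 or for untethered Dam for 1 day and then grew for 72 h. OL Dam-LMNB1 (3 libraries, numbered 18, 19 and 20) and OL Dam (3 libraries, 12, 13 and 14) came from differentiation medium, named T3 in the labels. OPC Dam-LMNB1 (3 libraries, 8, 9 and 10) and OPC Dam (2 libraries, 2 and 4) came from proliferation medium, named PF. The OL cells are thus OPC in differentiation medium, with no sort for mature cells stated, and the scores measure lamina contact rather than expression, so the cell types could not be checked against markers. Each score sets 1 Dam-LMNB1 library against the Dam libraries of the same condition, pooled, and read depth is unknown. Values of a region are given in library order throughout, for OL libraries 18, 19 and 20 and for OPC libraries 8, 9 and 10. Over the whole table the mean score was −0.793 to −0.883 in the OL libraries and −0.915 to −0.941 in the OPC libraries, and OL library 18 had the narrowest spread (SD 1.46, against 1.53 to 1.59 in the other 5). The median OL minus OPC difference was 0.0965 over all 21534 regions and 0.134 over the interior regions, but both fell close to 0 when the libraries were rescaled, the second to 0.0133 with a common mean and SD and to 0.0121 with quantile normalization. The upward shift of most regions thus depends on the scaling.

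All 6 scores were used to choose the regions, so their differences are a description and carry no test. The median difference of the 606 regions was −0.527 score units, with quartiles of −0.645 and −0.454 and extremes of −1.69 and −0.40. Falls of more than 0.5 were seen in 360 regions, of more than 0.6 in 195, of more than 0.8 in 55 and of more than 1 in 15. The median score of the 606 regions was −1.57, −1.67 and −1.66 in the OL libraries, against −1.03, −1.06 and −1.05 in the OPC libraries. Over all interior regions the order was the other way, with medians of −1.75, −1.87 and −1.87 in OL and −1.96, −2.0 and −1.98 in OPC. The median SD between the 3 libraries was 0.112 in OL and 0.0838 in OPC, and the median gap between the highest OL score and the lowest OPC score was 0.334. Between 2 libraries of the same condition the median absolute difference over the 606 regions was 0.0928 to 0.163 in OL and 0.0816 to 0.101 in OPC, against 0.469 to 0.627 between an OL and an OPC library.

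A fit across the whole table (limma, Benjamini-Hochberg adjusted p under 0.05) called 605 of the 606 lower in OL, where 8.25% of the interior regions and 10.9% of the whole table were called lower. It called 25.2% of the interior regions and 23.0% of the whole table higher. With a common mean and SD for all libraries the calls over the whole table were nearly balanced, at 3261 lower and 3330 higher (49.5% lower), in place of 2345 and 4963 (32.1%). All 3 OL scores lay below all 3 OPC scores in 12% of the interior regions and in 15.4% of the table. The adjusted p-value in the authors' deposited table was under 0.05 with a lower OL score for 118 of the 606, where 1.23% of that table (264 regions) was. The rule used this same contrast, so nothing is read from these counts.

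**Figure D1:**
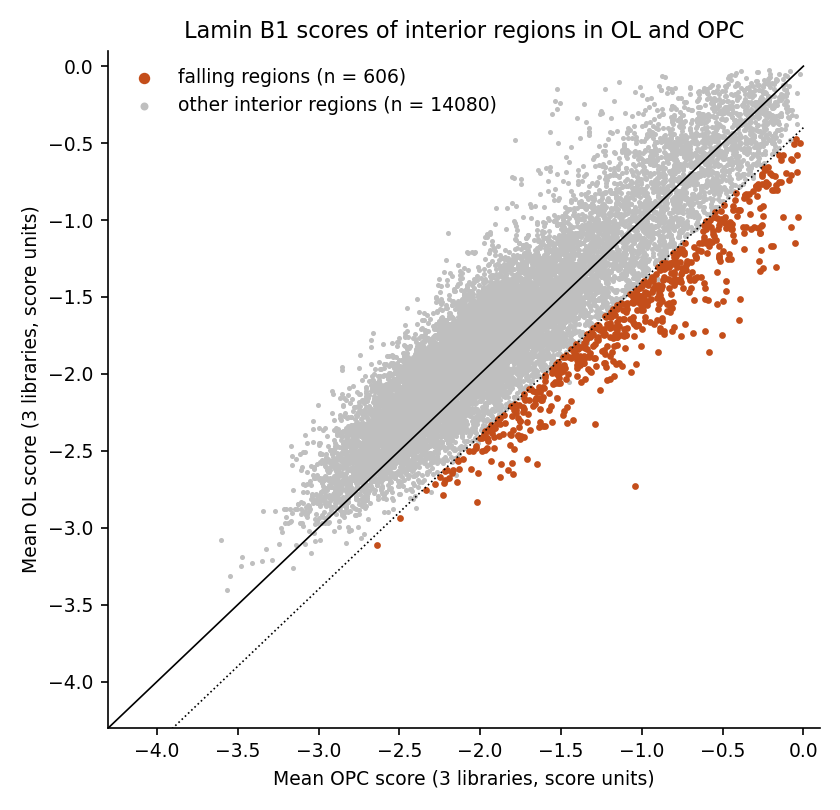
Mean score of the 3 OL libraries (vertical axis, score units) against the mean score of the 3 OPC libraries (horizontal axis, score units) for the 14686 interior regions. Orange points are the 606 falling regions and grey points the other interior regions; the solid line marks equal scores and the dotted line a difference of −0.4. The falling regions spread along the lower edge, most of them at OPC scores between −2 and 0.

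The strongest falls touched a secreted matrix factor, guidance and cytokine receptors, a cation channel, a gap junction protein and several small RNA genes. Sequences of the leading items are given first, because the assay reads only GATC sites and because the small RNA regions hold no other annotated product of their own. The lines below are the 250 bases upstream of the annotated start of the 3 protein-coding genes with the largest falls, 5′ to 3′ on the gene's strand, from RefSeq on build GRCm38.p6, with each GATC in capitals. Pcolce2 is at chr9:95637378-95637627 (plus strand), Cdc42ep3 at chr17:79355092-79355341 (minus strand) and Nrp1 at chr8:128358823-128359072 (plus strand).
Pcolce2: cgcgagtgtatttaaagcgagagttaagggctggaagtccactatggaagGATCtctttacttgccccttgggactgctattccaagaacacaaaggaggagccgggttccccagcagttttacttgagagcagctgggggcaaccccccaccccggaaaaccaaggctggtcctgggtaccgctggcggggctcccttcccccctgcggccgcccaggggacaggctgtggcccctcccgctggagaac
Cdc42ep3: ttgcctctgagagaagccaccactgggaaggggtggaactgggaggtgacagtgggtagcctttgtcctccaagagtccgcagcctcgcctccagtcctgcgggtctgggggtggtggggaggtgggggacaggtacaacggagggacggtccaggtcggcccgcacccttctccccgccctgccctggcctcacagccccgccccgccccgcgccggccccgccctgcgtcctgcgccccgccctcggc
Nrp1: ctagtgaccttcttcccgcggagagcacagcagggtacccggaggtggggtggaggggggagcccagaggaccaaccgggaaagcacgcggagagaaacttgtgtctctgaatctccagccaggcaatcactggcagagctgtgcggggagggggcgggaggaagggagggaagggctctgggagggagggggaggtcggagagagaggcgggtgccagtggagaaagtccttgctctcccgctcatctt

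The Pcolce2 window held 1 GATC, whereas the Cdc42ep3 and Nrp1 windows held none. Promoter windows were matched for 442 of the 606 regions, and 42.1% of them held at least 1 GATC, against 39.0% of the interior regions' windows and 39.7% of all matched windows. AGGTCA, the half-site bound by thyroid hormone and other nuclear receptors, was found on either strand in 13.8%, against 11.6% and 12%. ACAAAG, the core bound by HMG-box factors such as the SOX family, was found on either strand in 14.9%, against 12.1% and 14.3%. The median GC content was 58.8%, against 59.6% and 56.8%, and the median number of CpG was 12, against 15 and 11. The shares lay close to both backgrounds, and a match in such a window is not evidence of binding.

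Small RNA genes have the narrowest regions, made up almost wholly of flanks. Most regions began about 10000 bp upstream of the gene (63.8% of 599 falling regions) and most ended about 2000 bp downstream (84.0%). Among the 606 regions, 41 were miRNA genes, which is 5.92% of the 693 interior miRNA regions and above the 4.11% of the 13261 protein-coding ones. Rising regions held 108 of the 693 and 1544 of the 13261, so the miRNA share was the higher one on that side too. RefSeq held mature sequences for 35 of the 41, 53 in all. The mature miRNAs below belong to the 3 largest miRNA falls with a sequence, to a brain-enriched miRNA and to the single seed that 2 of the regions shared; bases 2 to 8 (the seed, which pairs with target messages) are in capitals.
mmu-miR-568: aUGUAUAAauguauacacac
mmu-miR-6339: gAUGCCUUuguccucaguguuag
mmu-miR-488-5p: cCCAGAUAauagcacucucaa
mmu-miR-488-3p: uUGAAAGGcuguuucuugguc
mmu-miR-128-3p: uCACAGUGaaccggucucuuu
mmu-let-7k: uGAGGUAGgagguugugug
mmu-let-7i-5p: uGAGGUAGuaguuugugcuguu

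The let-7 seed GAGGUAG was the only seed carried by 2 of the regions, Mir7k on chr5 with a difference of −0.649 (SE 0.0983) and Mirlet7i on chr10 with a difference of −0.474 (SE 0.152). All other seeds among the 53 sequences occurred once.

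Mir568, on chr16, fell furthest of all regions in the table. Its scores were −2.47, −3.25 and −2.46 in OL, against −1.05, −1.03 and −1.05 in OPC, a difference of −1.69 (SE 0.187). The 3 OPC libraries lay within 0.0187 score units of each other, whereas OL library 19 lay far below the other 2 OL libraries, and even the highest OL score was 1.41 below the lowest OPC score. Mir568 lies at chr16:43630654-43642737, next to Zbtb20 and inside the longest run of falling regions described below.

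Pcolce2, whose product enhances procollagen C-propeptide cleavage, stood at −1.68, −1.96 and −1.94 in OL, against −0.555, −0.669 and −0.523 in OPC, a difference of −1.28 (SE 0.0965) (chr9:95627627-95697551). Trpc1, a receptor-operated cation channel whose region is the next along chr9, stood at −1.0, −1.23 and −1.22 in OL, against −0.0570, −0.0636 and −0.0305 in OPC, a difference of −1.10 (SE 0.0812) (chr9:95703066-95760358). Trpc1 was closest to 0 in OPC of the 15 leading regions, so these neighbours fell by more than 1 from different OPC levels. Both were lowest in OL libraries 19 and 20.

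Cdc42ep3, an effector that binds the small GTPase Cdc42, stood at −1.72, −1.89 and −1.63 in OL, against −0.604, −0.424 and −0.473 in OPC, a difference of −1.25 (SE 0.0919) (chr17:79332024-79365091). Daam2, a formin of the Wnt pathway that has been studied in oligodendrocyte differentiation, stood at −1.76, −1.83 and −1.58 in OL, against −0.720, −0.581 and −0.530 in OPC, a difference of −1.11 (SE 0.0914) (chr17:49454021-49574337). Itgb3, the integrin β3 subunit, stood at −1.17, −1.31 and −1.31 in OL, against −0.149, −0.344 and −0.336 in OPC, a difference of −0.987 (SE 0.0837) (chr11:104597999-104672471). In these 3 genes of adhesion and the actin cytoskeleton the 3 OL libraries spanned 0.259, 0.242 and 0.142 and the 3 OPC libraries 0.179, 0.190 and 0.196, and the falls were several times those ranges.

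Nrp1, the neuropilin co-receptor for class 3 semaphorins and VEGF, had the smallest standard error of the 15 leading regions. It stood at −1.28, −1.31 and −1.32 in OL, against −0.184, −0.179 and −0.151 in OPC, a difference of −1.13 (SE 0.0665) (chr8:128349072-128507475). Il6st, the gp130 chain shared by receptors of the IL-6 family, stood at −2.10, −2.45 and −2.42 in OL, against −1.21, −1.22 and −1.43 in OPC, a difference of −1.03 (SE 0.114) (chr13:112454069-112508860). Il6st was already well below 0 in OPC, unlike Nrp1, and ended among the lowest of the leading regions in OL. Tmeff1, a transmembrane protein with follistatin-like and EGF-like domains, stood at −1.65, −1.42 and −1.46 in OL, against −0.370, −0.452 and −0.348 in OPC, a difference of −1.12 (SE 0.0845) (chr4:48575192-48665131).

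Gjb6, which encodes the gap junction protein connexin 30 known from astrocytes, stood at −1.47, −1.46 and −1.65 in OL, against −0.347, −0.689 and −0.450 in OPC, a difference of −1.03 (SE 0.103) (chr14:57121300-57143611). Fam20a, a pseudokinase of the secretory pathway, stood at −1.32, −1.34 and −1.33 in OL, against −0.236, −0.255 and −0.322 in OPC, a difference of −1.06 (SE 0.0684) (chr11:109670889-109732256). Its 3 OL libraries lay within 0.0144 of each other. Banf2, a relative of the barrier-to-autointegration factor, stood at −1.09, −1.42 and −1.43 in OL, against −0.278, −0.176 and −0.305 in OPC, a difference of −1.06 (SE 0.102) (chr2:144023101-144075979). Ehf, an ETS-family factor of epithelia, stood at −1.77, −1.67 and −1.83 in OL, against −0.765, −0.746 and −0.753 in OPC, a difference of −1.0 (SE 0.0757) (chr2:103261432-103313196). OL library 18 lay well above the other OL libraries in Banf2, while the Ehf libraries lay close together in both conditions.

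The other leading small RNA regions were Mir7212 and Mir6339. Mir7212 stood at −1.96, −1.60 and −1.39 in OL, against −0.282, −0.468 and −0.444 in OPC, a difference of −1.25 (SE 0.132) (chr15:25938226-25950287). Mir6339 stood at −1.80, −1.37 and −1.46 in OL, against −0.449, −0.739 and −0.418 in OPC, a difference of −1.01 (SE 0.127) (chr2:130014291-130026408). The OL libraries spanned 0.561 in Mir7212 and 0.426 in Mir6339, more than in any of the protein-coding regions above, and in both OL library 18 was the lowest, where it was the highest OL library in Pcolce2, Nrp1, Trpc1, Banf2, Il6st and Itgb3.

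**Figure D2:**
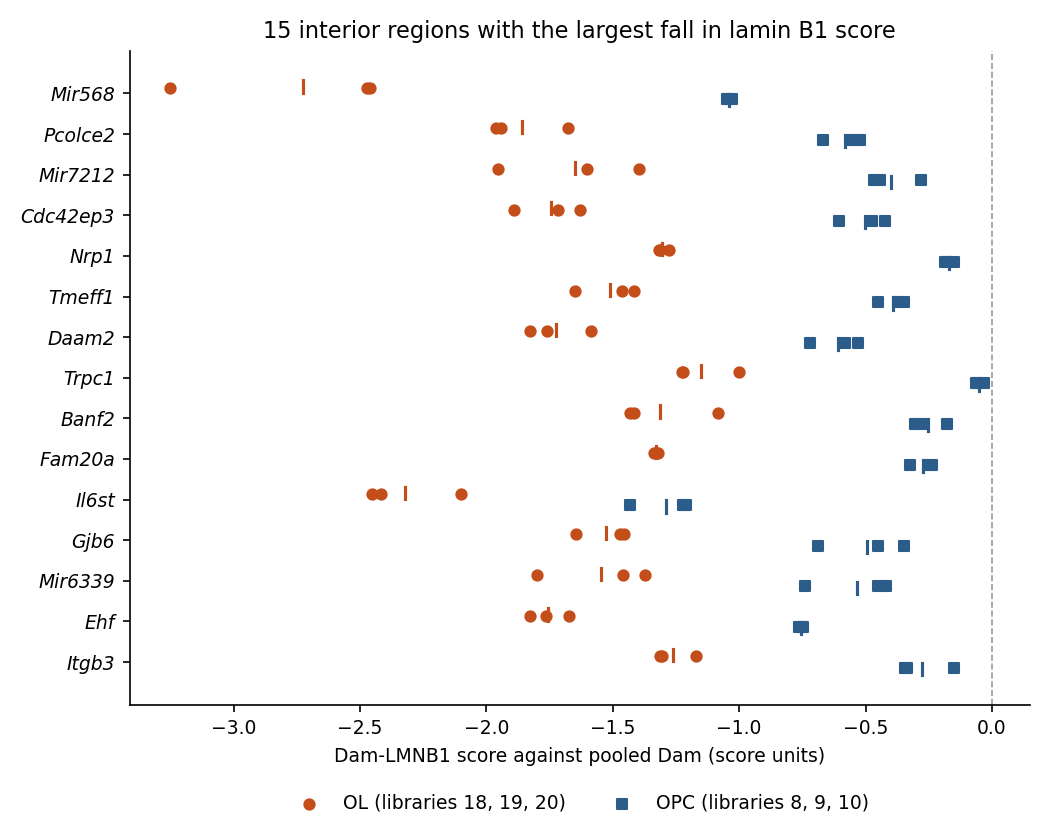
Scores of the 15 falling regions with the largest falls, 1 for each set of overlapping regions, in score units (horizontal axis; the dashed line is 0). For each gene the 3 OL libraries (orange circles, above) and the 3 OPC libraries (blue squares, below) are shown with a short vertical line at their mean. All OL points lie left of all OPC points, and Mir568 stands apart with OL scores of −2.46 to −3.25.

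At the threshold the regions form a continuum. The 3 just inside it were Frmd4a (−0.40005), Mmp19 (−0.40009) and Gna13 (−0.40033), and the 3 just outside it were Prkar1b (−0.3998), Zzef1 (−0.39932) and Ly6h (−0.39908), all with OL scores below their OPC scores. A further 31 interior regions passed the size limit while their libraries overlapped. The smallest gap between the conditions among the 606 was in Cldnd2, named here after its values were seen, where the highest OL and the lowest OPC score were 2.49e-05 apart.

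Most of the falling regions began above the typical interior level. Their median OPC score was −1.04, against −1.98 for all interior regions, while in OL their median was −1.64, against −1.83. The OPC score was above −1 in 283 of the 606 (46.7%), against 13% of the interior regions. Of the interior regions with an OPC score from −4 to −2.5, 0.0478% were falling (1 of 2094). The share was 0.492% from −2.5 to −2, 3.13% from −2 to −1.5, 9.71% from −1.5 to −1, 14.1% from −1 to −0.5 and 16.5% from −0.5 to 0 (99 of 601). The share therefore went up with every step towards 0, on a score that the rule itself used.

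Scores at both extremes of this range are given next. The 4 falling regions nearest to 0 were Mgmt, a DNA repair methyltransferase gene, at −0.466, −0.638 and −0.621 in OL, against −0.0110, −0.0146 and −0.0888 in OPC, Zkscan7, a zinc finger gene, at −0.378, −0.510 and −0.624 in OL, against −0.00505, −0.0125 and −0.151 in OPC, Ptprn2, a receptor-type phosphatase of secretory granules, at −0.421, −0.594 and −0.490 in OL, against −0.0308, −0.0179 and −0.0144 in OPC, and Gbp7, an interferon-induced GTPase gene, at −0.329, −0.659 and −0.427 in OL, against −0.0751, −0.00151 and −0.0590 in OPC. Their differences were −0.537, −0.448, −0.481 and −0.426. The 4 lowest were Mir6920 at −3.27, −3.06 and −3.0 in OL, against −2.76, −2.89 and −2.26 in OPC, Snord12 at −3.11, −2.92 and −2.78 in OL, against −2.54, −2.31 and −2.65 in OPC, Mtmr10, a myotubularin-related gene, at −2.56, −2.99 and −2.71 in OL, against −2.37, −2.45 and −2.17 in OPC, and Plau, the urokinase gene, at −2.82, −2.59 and −2.96 in OL, against −2.15, −2.43 and −2.11 in OPC. Their differences were −0.474, −0.440, −0.424 and −0.559. The falls at both ends were thus of a like size, and all were well short of the leading ones.

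Falling regions were wider than the rest. The median width was 43.7 kb, against 27.2 kb for all interior regions and 20.9 kb for the rising regions. Regions over 100 kb made up 24.9% of the 606 (151 regions), against 9.46% of the interior and 3.52% of the rising regions. Of the interior regions up to 20 kb wide, 2.81% were falling, and the share was 3.17% at 20 to 50 kb, 5.45% at 50 to 100 kb, 9.20% at 100 to 200 kb and 14.7% above 200 kb. The rising regions ran the other way, with 16.9%, 11.8%, 6.52%, 4.65% and 4.03% in the same classes. Within the interior regions with an OPC score above −1.5 the falling share still went up with width, from 10.0% and 10.7% in the 2 narrowest classes to 12.3%, 18.6% and 22.4%. Below −1.5 it was 0.925%, 0.891%, 2.11%, 3.22% and 6.73%. Width also sets how many GATC sites and reads a score averages, and the part of that in these shares was not tested.

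**Figure D3:**
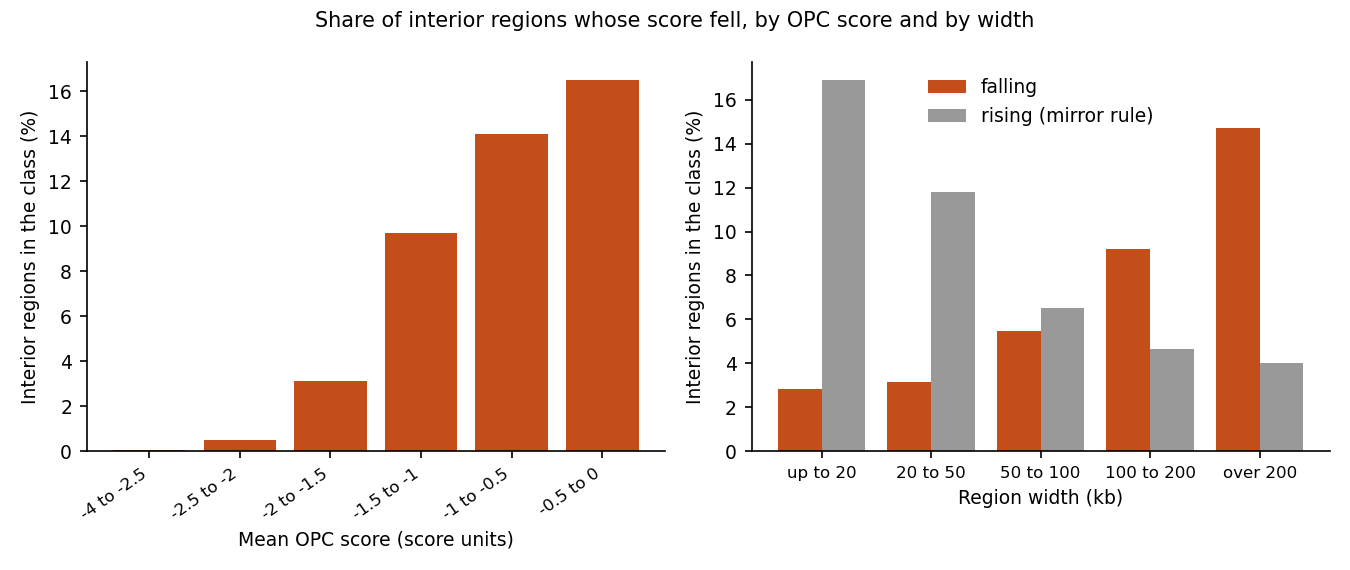
Left, share of interior regions that were falling (per cent) by mean OPC score in score units; right, share of interior regions that were falling (orange) and rising (grey) by region width in kb. The falling share reaches 16.5% in the class nearest to 0 and 14.7% above 200 kb, where the rising share is 4.03%.

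Ptprt, a receptor-type tyrosine phosphatase gene, had one of the widest regions, at 1151 kb (chr2:161519987-162671147). It stood at −1.12, −1.21 and −1.18 in OL, against −0.198, −0.229 and −0.168 in OPC, a difference of −0.972 (SE 0.0686). Its 3 OL libraries spanned 0.0929, against 0.793 in the 12.1 kb region of Mir568. Ptprtos, an antisense RNA gene inside Ptprt, started lower and stood at −2.06, −2.34 and −2.56 in OL, against −1.28, −1.38 and −1.73 in OPC, a difference of −0.856 (SE 0.150).

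The nearest region above 0 in all 6 libraries lay at a median of 688 kb from a falling region, against 1049 kb from an interior region and 1078 kb from a rising region. It lay within 100 kb of 87 falling regions (14.4%), against 10.4% of the interior regions, and within 500 kb of 246 (40.6%), against 31.5%. The falling share was 5.95% at a gap of up to 100 kb and went down with distance to 3.25% beyond 1000 kb. With no gap it was only 3.7% (7 of 189), so the share did not go up all the way to such a region. A score nearer to 0 and a nearer lamina-associated region go together among interior regions, whose median OPC score was −0.714 with no gap to such a region, −1.23 at a gap of up to 100 kb and −2.12 beyond 1000 kb. The 2 features were not separated.

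The falling regions lay on every autosome. The share of interior regions that fell was 7.06% on chr1 (60 of 850), 6.21% on chr9 (52 of 838), 6.11% on chr12 (30 of 491), 6.08% on chr16 (27 of 444) and 5.73% on chr18 (18 of 314). It was 1.65% on chr19 (9 of 546), 2.17% on chr8 (17 of 785) and 2.47% on chr10 (16 of 648), and between 2.73% and 4.76% on the others. On chr1 and chr12 the rising share was also low, at 7.88% and 5.91%, whereas chr10 and chr19 had high rising shares of 19.9% and 17.9%. A low falling share beside a high rising share was also seen on chr13 (3.58% and 15.9%) and chr15 (2.73% and 15.7%). On chr8 the rising share was 13.1%, just above the 12% of all interior regions. The opposition did not hold on every chromosome, as chr14 had 3.28% falling and 7.41% rising, and chr17 had 4.14% falling and 18.6% rising.

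Falling regions sat next to each other along the chromosomes. In gene order they formed 430 runs, of which 314 held 1 region, 80 held 2 and 36 held 3 or more, so 292 of the 606 (48.2%) had a falling region as their direct neighbour. Overlap between regions accounts for part of this, since 142 of the 606 overlapped another of them, and the 606 made up 529 sets that did not overlap. Overlap as such was less common than elsewhere, as 53.8% of the 606 overlapped some other region of the table, against 74.2% of the interior regions.

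The longest run held 9 regions over 789.2 kb on chr16 (chr16:43237283-44026436) with a median difference of −0.738. It started with Zbtb20, a zinc finger repressor gene, at −2.47, −2.66 and −2.61 in OL, against −1.81, −1.90 and −1.90 in OPC, a difference of −0.711 (SE 0.0869). After Mir568 came Tigit, an inhibitory receptor of lymphocytes, with a difference of −0.893 (SE 0.0880), and Drd3, the dopamine D3 receptor, with −0.764 (SE 0.0751). Qtrtd1, a subunit of the enzyme that puts queuine into tRNA, had a difference of −0.532 (SE 0.109), the smallest of the run. Ccdc191, a coiled-coil gene, followed with −0.677 (SE 0.0863), Zdhhc23, a palmitoyltransferase gene, with −0.738 (SE 0.0978), Gramd1c, a gene of the family of sterol transfer proteins, with −0.843 (SE 0.0824), and Mir3470b, inside Gramd1c, with −0.702 (SE 0.175). Upstream of the run, Gap43 had a difference of −0.031 and Mir6540 of 0.0198, so the fall did not extend to these neighbours. Beyond them Lsamp was again one of the 606, with a difference of −0.583, and Igsf11 stood at −0.321. Downstream, Atp6v1a missed the threshold at −0.386, Naa50 was higher in OL at 0.139, and Usf3, Sidt1 and Cfap44 lay between −0.322 and −0.347. Spice1, between Sidt1 and Cfap44, was again one of the 606, with a difference of −0.548 (SE 0.0991). These flanking genes are named after their values were seen.

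The second run held 8 regions over 989.1 kb on chr17 (chr17:78917002-79906123) with a median difference of −0.720. Its largest fall was Cdc42ep3, followed by Rmdn2, a regulator of microtubule dynamics, at −1.57, −1.34 and −1.28 in OL, against −0.483, −0.464 and −0.488 in OPC, a difference of −0.916 (SE 0.0882). Ndufaf7, an assembly factor of respiratory complex I, had a difference of −0.814 (SE 0.128), Prkd3, protein kinase D3, of −0.755 (SE 0.0829), Atl2, an endoplasmic reticulum GTPase, of −0.686 (SE 0.0980), Cyp1b1, a cytochrome P450, of −0.565 (SE 0.182), Qpct, glutaminyl-peptide cyclotransferase, of −0.546 (SE 0.0801), and Cebpz, a CCAAT-binding factor gene, of −0.485 (SE 0.117). The OL scores of Cyp1b1 spread widely, at −1.47, −2.05 and −2.31, and its highest OL score lay just below the lowest OPC score of −1.44. Only Cebpzos, at −0.188, parted this run from 4 further falling regions, Heatr5b, Gpatch11, Eif2ak2 and Sult6b1, with differences of −0.736, −0.647, −0.818 and −0.540. Strn, before these, stood at a mean of −0.407 in OL and 0.199 in OPC and so changed sign rather than staying interior. After Atl2 the fall ended at once, with differences of −0.0801 and 0.0129 in the 2 Hnrnpll regions. The genes outside the run are named after their values were seen.

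**Figure D4:**
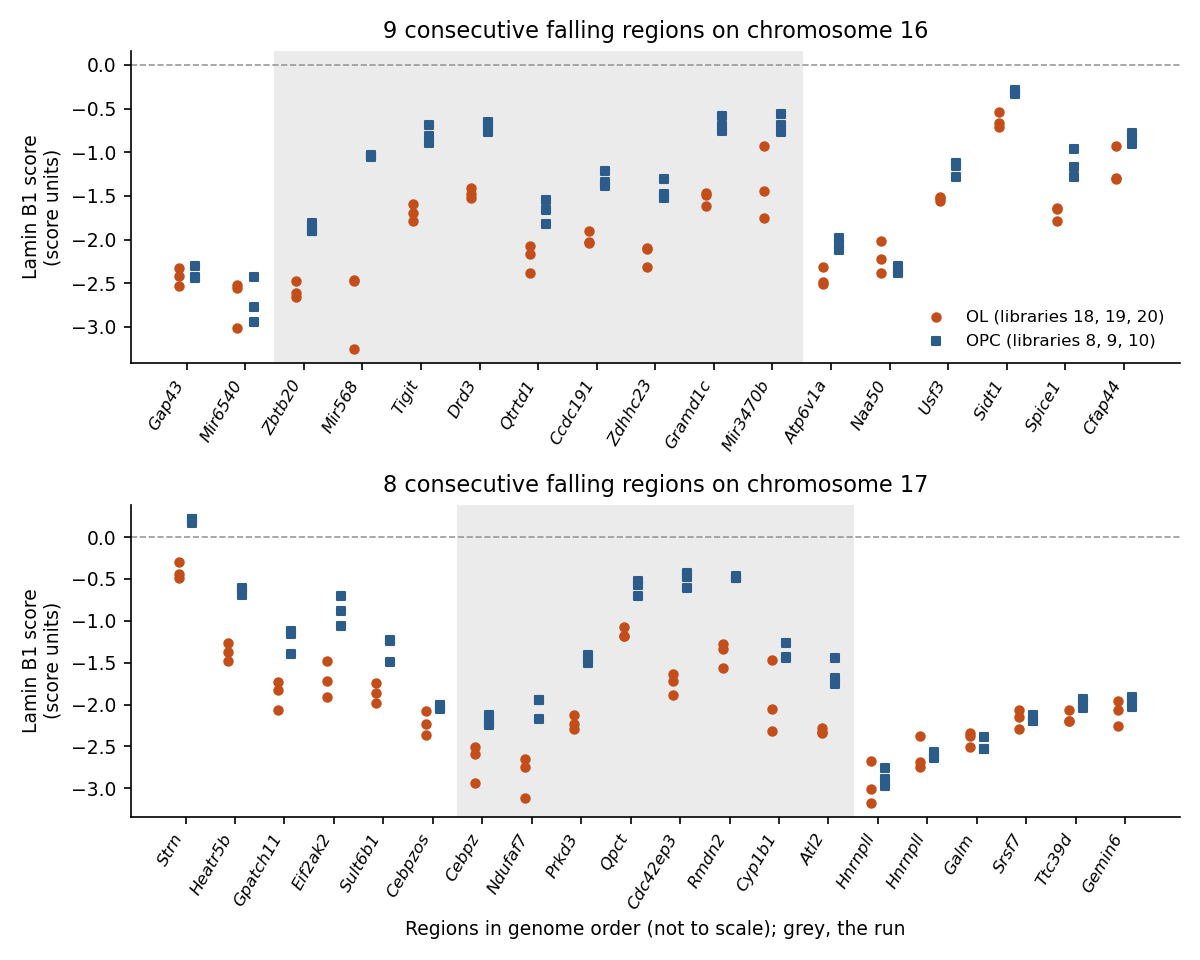
Scores (vertical axis, score units) of the 3 OL libraries (orange circles, left) and the 3 OPC libraries (blue squares, right) for each region in and around the 2 longest runs, in genome order and not to scale. The shaded regions are the 9 of the chr16 run and the 8 of the chr17 run; OL and OPC points are apart within the shading and close together in Gap43 and Mir6540 before it and in both Hnrnpll regions after it.

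Another run, of 6 regions on chr11 (chr11:121411372-121719389) held Fn3krp and Fn3k, which act in repair of glycated proteins, Tbcd, a tubulin folding cofactor, Zfp750, B3gntl1 and Metrnl, the gene of a meteorin-like secreted factor. Their differences were −0.523, −0.589, −0.473, −0.522, −0.431 and −0.599. It ended at Ptchd3, whose mean score was 0.664 in OL and 0.736 in OPC. A run of 5 regions on chr12 (chr12:101916900-102449697) held Atxn3, the ataxin 3 deubiquitinase gene, Cpsf2, a cleavage factor of messenger 3′ ends, Slc24a4, a sodium, potassium and calcium exchanger, Rin3, a Rab5 activator, and Lgmn, the lysosomal protease legumain. Their differences were −0.405, −0.573, −0.589, −0.584 and −0.428. Before it, Trip11 had a mean of −0.258 in OL and 0.0689 in OPC, and Fbln5 stood above 0 in both. The chr11 run thus bordered a region above 0 in both conditions. The region next to the chr12 run was above 0 in OPC only, and those next to the chr16 run were above 0 in neither.

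The fall faded with distance from these regions. Interior regions that were not among the 606 but overlapped one of them had a median difference of −0.187, and 82.8% of the 232 were lower in OL. Such overlapping regions share DNA with the chosen ones. Without overlap, the median was −0.0602 at a gap of up to 50 kb (58.9% lower in OL), −0.0139 at 50 to 100 kb (51.8%), 0.0417 at 100 to 200 kb (43.0%), 0.0995 at 200 to 500 kb (35.4%), 0.116 at 500 to 1000 kb (31.2%), 0.143 at 1000 to 2000 kb (26.8%) and 0.194 above 2000 kb (19.1% of 7111). These medians are of the scores as deposited and stand beside 0.134 for all interior regions, a level that rescaling brings close to 0. In OL the falling regions had the level of their surroundings, and in OPC they stood above it. For the 315 with a region outside the set at a gap of up to 50 kb, the median score in OL was −1.72, against −1.76 in the flanking regions, and in OPC −1.17, against −1.67. The median difference from the flank was −0.0236 in OL, where 152 of 315 lay above it, and 0.385 in OPC, where 228 of 315 did. The rule chose for a low OL and a high OPC score, so this contrast is a description.

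**Figure D5:**
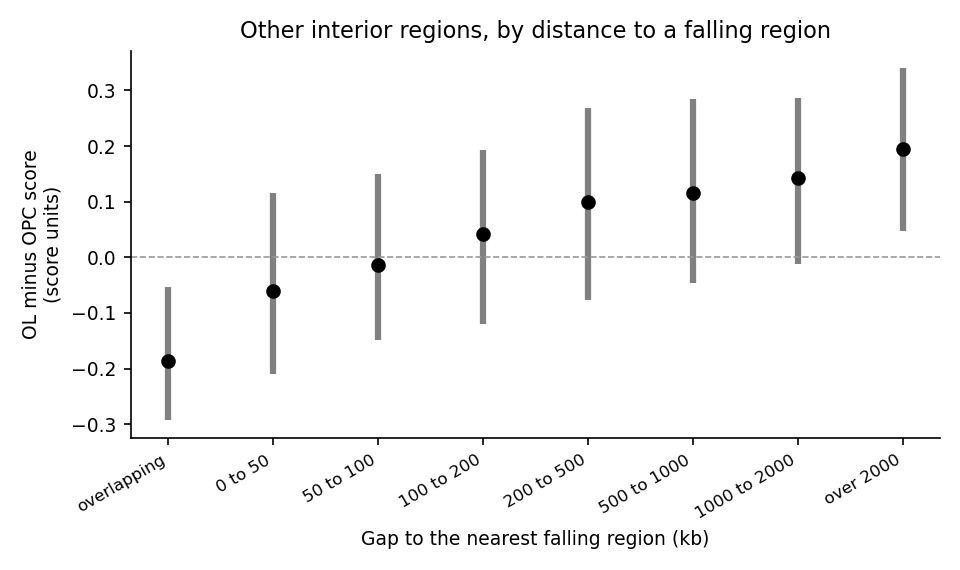
Median OL minus OPC difference (points, score units) with the quartiles (bars) of interior regions outside the 606, by the gap in kb to the nearest of the 606. The median is −0.187 for overlapping regions, passes 0 between the 50 to 100 kb and the 100 to 200 kb classes, and is 0.194 beyond 2000 kb.

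Of the 606, 53 lay wholly inside the region of another gene, 29 of them small RNA genes, and for 18 the host was falling too. The fall was larger than that of the smallest host in 47 of the 53, with a median difference of −0.209 between the inner and the host value. The inner regions were chosen by their own fall, and a narrow window is averaged less, so this excess is in part set by the choice. The examples that follow were chosen after their values were seen. Mir7212 lay inside Fam134b, a receptor gene of endoplasmic reticulum autophagy, whose own difference was −1.05 (SE 0.0903) against −1.25 for the miRNA region. Mir6339 lay inside Tgm3, a transglutaminase gene, with −0.567 (SE 0.0870) against −1.01. Mir488 lay inside Astn1, an adhesion gene of migrating neurons. The Mir488 window stood at −2.69, −2.49 and −2.58 in OL, against −1.56, −1.71 and −1.68 in OPC. The whole Astn1 region stood at −1.37, −1.52 and −1.499 in OL, against −0.809, −0.968 and −0.899 in OPC. The window thus lay lower than its host in both conditions, and fell by 0.933, against a fall by 0.571 for the host. Mir128-2, a source of the brain-enriched miR-128, stood at −1.61, −0.956 and −1.18 in OL, against −0.672, −0.410 and −0.486 in OPC, a difference of −0.724 (SE 0.150). Its host Arpp21 crossed 0, with a mean of −0.524 in OL and 0.167 in OPC, and so was not interior. Lrrtm1, a synaptic adhesion gene inside the α-catenin gene Ctnna2, stood at −1.77, −1.63 and −1.38 in OL, against −1.03, −0.908 and −1.36 in OPC, while Ctnna2 stayed above 0 with means of 0.355 in OL and 0.889 in OPC.

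Genes were next described by role with 43 gene lists, on which 158 of the 606 regions appeared. The median difference of the interior members of a list ranged between 0.0346 and 0.339, around the 0.134 of all interior regions, a level that moves with the scaling of the libraries. For each list the count of falling regions is given with the number of interior regions, beside the 4.13% of all interior regions. For some lists only, a count of rising regions is added, to be read beside 12%. Limma calls, also given for some lists only, are to be read beside 8.25% lower and 25.2% higher. The falling regions of a list carry no test of their own.

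Genes of the oligodendrocyte lineage contributed 3 regions. Of 22 interior OPC genes 1 fell, Tnr, the gene of the matrix protein tenascin-R, at −2.01, −2.24 and −2.21 in OL, against −1.62, −1.66 and −1.68 in OPC, a difference of −0.501 (SE 0.0898) (chr1:159513768-159926922). Limma called 1 of the 22 lower and 8 higher in OL. Of 40 interior myelin and oligodendrocyte genes 2 fell. Itpr2, an inositol trisphosphate receptor that marks newly committed oligodendrocytes in mice, stood at −1.93, −1.93 and −1.93 in OL, against −1.09, −1.14 and −1.19 in OPC, a difference of −0.791 (SE 0.0746) (chr6:146106298-146512223). Mal, a proteolipid of compact myelin, stood at −1.81, −1.86 and −1.96 in OL, against −1.44, −1.56 and −1.22 in OPC, a difference of −0.475 (SE 0.103) (chr2:127631225-127666695). The 3 OL libraries of Itpr2 lay within 0.00551 of each other, while the OPC libraries of Mal spanned 0.348. Limma called 4 of the 40 lower and 6 higher. None of 38 interior lineage transcription factors was falling; limma called 2 lower and 6 higher.

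Among 14 interior thyroid hormone genes, relevant because the differentiation medium is named T3 in the labels, 1 fell. This was Ncoa1, the nuclear receptor coactivator SRC-1, at −2.32, −2.38 and −2.34 in OL, against −1.72, −1.80 and −1.75 in OPC, a difference of −0.589 (SE 0.0777). Of the 14 thyroid hormone genes 1 was rising (7.14%), and limma called 1 lower and 4 higher. Of 41 interior genes of sterol and myelin lipid synthesis 2 fell, Hmgcs1, which makes HMG-CoA, with −0.551 (SE 0.108), and Acaca, acetyl-CoA carboxylase, with −0.524 (SE 0.0778); limma called 3 lower and 11 higher. Abca1, which exports cholesterol, was the only one of 52 ABC and ATPase transporters, and stood at −1.66, −1.89 and −1.68 in OL, against −0.788, −0.929 and −0.877 in OPC, a difference of −0.878 (SE 0.0889). Of 28 nuclear lamina, envelope and pore genes 1 fell, Sun1, which links the lamina to the cytoskeleton, with −0.416 (SE 0.112). In the same list 5 were rising (17.9%), and limma called 2 lower and 7 higher.

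Adhesion genes were next. Of 30 interior synaptic adhesion and neural immunoglobulin genes 6 fell (20.0%), and limma called 9 of the 30 lower and 6 higher. Nrcam, a node of Ranvier adhesion molecule, stood at −0.913, −1.02 and −0.949 in OL, against −0.347, −0.372 and −0.278 in OPC, a difference of −0.627 (SE 0.0703), and Lsamp, a limbic GPI-anchored molecule, had a difference of −0.583 (SE 0.0889). The other 4 were Cadm3, Lrrtm1, Opcml and Ntm, with differences of −0.505, −0.495, −0.474 and −0.459. Lsamp, Opcml and Ntm belong to 1 family of GPI-anchored immunoglobulin proteins, and their regions of 624.9 to 1145.8 kb are among the widest of the 606. Of 123 interior integrin, cadherin and matrix genes 10 fell (8.13%), led by Itgb3 and by Itga7, a laminin receptor subunit, at −1.87, −1.87 and −2.06 in OL, against −1.19, −1.05 and −1.24 in OPC, a difference of −0.774 (SE 0.0908); limma called 16 lower and 33 higher. The width of a region was not separated from its role.

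Ion channels and receptors follow. Of 75 interior sodium, calcium, chloride and TRP channel genes 7 fell (9.33%), led by Trpc1 and Itpr2, and limma called 11 lower and 18 higher. Of 73 potassium channel genes 5 fell (6.85%). Kcnk1, a leak channel, stood at −1.74, −2.37 and −2.21 in OL, against −1.09, −1.25 and −1.44 in OPC, a difference of −0.846 (SE 0.157), and Kcnj6, a G protein-gated inward rectifier, at −1.01, −1.07 and −1.05 in OL, against −0.252, −0.226 and −0.310 in OPC, a difference of −0.779 (SE 0.0681). The OL libraries of Kcnj6 spanned 0.0619 and those of Kcnk1 0.627. Potassium channel genes were called lower in 10 of 73 and higher in 9. Of 64 neurotransmitter receptor genes 4 fell, led by Drd3 and Adra1b, the α1B adrenergic receptor (difference −0.616, SE 0.0742). Of 60 orphan and adhesion GPCR genes 4 fell, led by Gpr176 with −0.645 (SE 0.0720) and Gpr26 with −0.568 (SE 0.107).

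Immune signalling genes included 1 of the 15 leading regions. Of 120 interior genes of chemokines, interleukins and the TNF family 13 fell (10.8%), and limma called 17 lower and 26 higher. Il6st led, followed by Ccr8, a chemokine receptor, at −1.64, −1.65 and −1.86 in OL, against −0.926, −0.373 and −1.14 in OPC, a difference of −0.906 (SE 0.171). The other 11 included the receptor genes Il31ra, Il4ra and Lifr, with differences of −0.772, −0.597 and −0.519, and the cytokine genes Il12b, Il33 and Il1b, with −0.813, −0.522 and −0.457. Il6st and Il31ra are neighbours on chr13 and Ccr8 lies next to Cx3cr1 on chr9, so these are not separate places in the genome. Of 91 interferon and innate response genes 4 fell, led by Gbp3 with −0.551 (SE 0.139) and Mx1 with −0.538 (SE 0.130). Among markers of other brain cells, 2 of 14 astrocyte genes fell, Gjb6 and Slc1a2, the glutamate transporter GLT-1, with −0.533 (SE 0.0783). As many astrocyte genes were rising (2 of 14), and limma called 2 lower and 2 higher. Of 12 microglia genes 1 fell, Cx3cr1, the fractalkine receptor, with −0.408 (SE 0.0953), and none of 10 endothelial and mural or 19 neuronal genes did. Limma called 1 of the 12 microglia genes lower and 4 higher, and none was rising. These scores say nothing of how much any such cell contributed.

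Signalling lists spread around the background share. Of 53 axon guidance genes 2 fell, Nrp1 and the ephrin receptor gene Epha4, at −1.83, −2.02 and −2.05 in OL, against −1.32, −1.34 and −1.33 in OPC, a difference of −0.637 (SE 0.0864). Of 148 genes of serine/threonine kinases and their subunits 9 fell, led by Prkd3 and Prkar1a, the regulatory subunit of protein kinase A (difference −0.702, SE 0.112). The list of phosphatases and their regulators had 7 of 138, led by Ptprt and by Ptprtos, an antisense RNA gene that entered through its symbol and lies in the same place, and the list of phosphodiesterases, cyclases and G protein signalling had 5 of 90. Of these 5, Pde1b was the only phosphodiesterase (difference −0.764, SE 0.0877), and the others were Prkar1a, the RGS genes Rgs9 and Rgs6, with differences of −0.701 and −0.683, and the G protein subunit gene Gna13. Of 40 Notch and Hedgehog genes 2 fell, the Hedgehog effector Gli2, at −1.79, −2.06 and −1.94 in OL, against −1.11, −1.27 and −1.33 in OPC, a difference of −0.694 (SE 0.0977), and the Notch inhibitor Numb (difference −0.485, SE 0.143). The highest OL score of Numb was only 0.0046 below its lowest OPC score. Of 62 BMP, TGF-β and activin genes 1 fell, Tgfb2 (difference −0.420, SE 0.0813), and of 61 Wnt pathway genes 1, Daam2. Of 90 growth factor and receptor tyrosine kinase genes none fell, and 16 (17.8%) were rising; limma called 5 lower and 26 higher.

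Transport and the cytoskeleton contributed further regions. Of 285 solute carrier genes 17 fell (5.96%), led by Slc44a1, a choline transporter, at −1.67, −1.69 and −1.62 in OL, against −0.814, −0.900 and −0.910 in OPC, a difference of −0.784 (SE 0.0743), and Slc30a1, a zinc exporter (difference −0.709, SE 0.103). Of 98 actin, myosin and adhesion plaque genes 3 fell, led by Myo6, the myosin that moves towards minus ends (difference −0.544, SE 0.0774), and Myl4, a myosin light chain (difference −0.520, SE 0.112). Of 114 microtubule and motor genes 4 fell, led by Clasp2, which stabilises plus ends (difference −0.603, SE 0.0726), and Dnah14, a dynein heavy chain (difference −0.570, SE 0.0799).

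Housekeeping and traffic genes contributed few regions. Of 282 Rab, Arf and membrane traffic genes 4 fell (1.42%), led by Vps13d, a lipid transfer protein gene, at −1.0, −1.13 and −1.12 in OL, against −0.271, −0.287 and −0.240 in OPC, a difference of −0.818 (SE 0.0710), and the sorting nexin Snx29 (difference −0.608, SE 0.0857), and 32 (11.3%) were rising. Limma called 15 of the 282 lower and 78 higher. None of 106 splicing factor genes fell, and 16 (15.1%) were rising. Of 53 cell cycle genes 1 fell, Rb1, the retinoblastoma gene (difference −0.459, SE 0.0828), while 14 (26.4%) were rising and limma called 24 higher. Of 80 cytosolic ribosomal protein genes 2 fell, Rpl41 (difference −0.425, SE 0.124) and Rpl21 (difference −0.420, SE 0.140), and of 85 respiratory chain genes 2, Ndufaf7 and Cox8b (difference −0.759, SE 0.138). Of 316 ubiquitin ligase and deubiquitinase genes 10 fell, led by Ube2d2b (difference −0.610, SE 0.0822) and Fbxo28 (difference −0.569, SE 0.0802).

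Developmental and chromatin regulators were near or under the background share. Of 45 Hox genes 1 fell, Hoxd13 (difference −0.409, SE 0.140), while 14 (31.1%) were rising and limma called 26 higher. Of 169 other homeobox, paired and forkhead genes 5 fell, led by Foxi2 (difference −0.601, SE 0.105) and Irx5 (difference −0.553, SE 0.128). The list of bHLH and neural transcription factors, which also holds some nuclear receptors, had 3 of 106, led by Ascl3 (difference −0.528, SE 0.170) and Nr3c1, the glucocorticoid receptor (difference −0.492, SE 0.0736). Of 261 Zfp zinc finger genes 8 fell, led by Zfp277 (difference −0.580, SE 0.0736) and Zfp133-ps (difference −0.567, SE 0.137). Of 131 heterochromatin and chromatin enzyme genes 4 fell, led by Chd6, a chromodomain remodeller (difference −0.684, SE 0.0800), and Arid2, a SWI/SNF subunit (difference −0.497, SE 0.0774), and of 67 replication-dependent histone genes 1, Hist1h2aa (difference −0.558, SE 0.169).

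By gene type, 545 of the 606 were protein-coding, 41 miRNA, 9 long noncoding RNA, 3 tRNA and 2 small nucleolar RNA genes. The tRNA share was the lowest, at 3 of 308 interior tRNA regions (0.974%). Mocs2 has 2 rows in the table at identical coordinates and Lrrc16a has 2 overlapping regions, so the 606 regions carry 604 gene names.

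Because all 6 libraries chose the regions, the fall was also read in libraries that had no part in the choice. The rule was applied to 2 OL and 2 OPC libraries, and the difference was read in the OL and the OPC library left out, for each of the 9 pairs. The 547 to 877 regions chosen in this way had a median difference in the left-out pair of −0.332 to −0.592, while that of all interior regions was 0.068 to 0.238. The difference was below 0 in 88.26% to 97.7% of the chosen regions, against 23.2% to 41.2% of the interior regions, and below −0.4 in 39.9% to 78.1%. The 3 pairs with OL library 18 left out gave the smallest medians, at −0.391, −0.332 and −0.351, and the other 6 lay between −0.482 and −0.592. The libraries of a condition share their pooled Dam denominator, so a deviation in Dam would appear in all of them and this check cannot show it.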

How the data were processed

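DamID-seq was used to map lamin B1 contacts in OL and OPC. Build mm10, BWA 0.7.17 and cutadapt 1.9.1 are named per the submitters' processing notes, while the step that made a score is not given in the sources used. The authors deposited 1 score per gene region for each of 6 Dam-LMNB1 libraries, which per the file headers compares it with the pooled Dam libraries of its condition (12, 13 and 14 in OL, 2 and 4 in OPC). The log base of the deposited score is not stated, so differences are in score units and never folds. The authors also deposited a p-value and an adjusted p-value per region. Read depth is unknown, so no counting error could be given.

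The scores of a condition share 1 Dam denominator, so Dam variation is missing from the spread and the standard errors. Nothing in the labels ties libraries to separate cultures or mice, so every p-value reflects spread that may be purely technical. With limma 3.58.1 (R 4.3.3), a model was fitted over all 21534 regions and 6 libraries with 1 mean per condition and a variance trend (9.42 total degrees of freedom), two-sided, with Benjamini-Hochberg adjustment at 0.05; the fit was tested on simulated data. Differences are OL minus OPC with the moderated standard error. The authors' difference column matched this one within 4.1e-08.

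Of 599 falling regions, 63.8% began 10000 bp upstream of the gene and 84.0% ended 2000 bp downstream (tolerance 100 bp). A score thus covers flanks, exons, introns and UTRs alike. Region coordinates come from the deposited table (mm10). Gene types and sequences came from RefSeq tables of GRCm38.p6, which matched 601 of the 606 regions. No sequence from chr18 is printed.

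The regions, gene lists and tests were chosen with earlier results of these data known. The genes named by rule were the 15 largest falls (1 per overlapping set), every falling region on the OPC, myelin, lineage factor, thyroid hormone and nuclear lamina lists, the 2 largest falls of every other list, the 4 longest runs, the 3 regions on each side of the threshold, the 4 lowest and the 4 nearest to 0, and the 2 widest and the 2 small RNA regions with the largest falls. Some of these items are not reported here. The design assumed values for all 11 libraries, whereas scores exist for 6, so Dam-LMNB1 and Dam are not analysed here on their own. Alternatives were rescaling each library to the same mean and SD, quantile normalization, other thresholds, leaving out each library and dropping the variance trend.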

Additional observations from a re-analysis of the deposited data

How the results depend on the processing

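After both rescalings below, all 107 regions named by the rule were still lower in OL. Both rescalings take away the upward shift of OL, which deepens the falls. The smallest fall among the 606 became −0.4755 with a common mean and SD and −0.4266 with quantile normalization, in place of −0.4001. The kept direction is therefore no check of the falls. Leaving out a library likewise could not turn a direction that the rule fixes. With a common mean and SD for all libraries, 1081 regions met the rule in place of 606, of which 598 were among the 606, and the median difference of the 606 was −0.628 in place of −0.527. Quantile normalization gave 1021 regions, of which 597 were among the 606, and a median of −0.606. Both remove the upward shift of OL, moving the median difference of the interior regions from 0.134 to 0.0133 and 0.0121, and the rising regions then number 716 and 756 in place of 1762. The calls of the whole table moved with them, with 2345 lower and 4963 higher (32.1% lower) as deposited, 3261 and 3330 (49.5%) after setting mean and SD, and 3278 and 3348 (49.5%) after quantile normalization. After both, the falling regions were still wide (medians of 43.0 and 43.4 kb), with falling shares of 23.3% and 21.8% over 200 kb and 5.66% and 5.23% up to 20 kb. The median OPC score of the regions chosen was further from 0, at −1.214 and −1.335, in place of −1.044 as deposited. How high the falling regions began thus depends in part on the scaling.

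A threshold of −0.3 gave 1004 regions and a threshold of −0.5 gave 360. Allowing the libraries to overlap gave 637 and counting overlapping regions once gave 529. Leaving out 1 library gave 546 to 797 regions, a median difference of −0.506 to −0.567, 559 to 589 of the 606 called lower, and 1673 to 2552 regions called lower and 3136 to 4132 called higher over the whole table (limma). The lowest count of higher calls, 3136, came without OPC library 9; this count was added after seeing the data. Of the 107 named regions, 15 lost their limma call without at least 1 library, among them Numb, Rpl41, Rpl21, Hist1h2aa, Hoxd13, Ascl3, Sun1, Cyp1b1, Zfp750, Atxn3 and Mir6920; the calls were not used as results. The medians in left-out pairs ran from −0.332 to −0.592. No paired analysis was possible because the OL and OPC libraries share no replicate numbers. Depth is unknown, so the precision of narrow regions could not be judged.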

Other observations

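Chromosome X was outside the rule. By the other criteria 7 of its 387 interior regions (1.81%) fell, against 4.13% of the interior regions of chr1 to chr19; they were chosen after their values were seen. One of them, Mir652, stood at −1.38, −0.907 and −1.12 in OL, against −0.574, −0.499 and −0.550 in OPC, a difference of −0.596. Dusp9, a phosphatase of MAP kinases, Nudt11, Mir374c, Gpr143 and Fam120c had differences of −0.478, −0.461, −0.443, −0.412 and −0.406.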
